A study of Homo sapiens with 12 samples.

Results

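Semaphorins, plexins and neuropilins were followed across 12 RNA-seq libraries of human glioblastoma cells given a control siRNA or an siRNA against *PD-L1*. The group was taken up because *SEMA6B* was known to rise with both siRNAs, and its members were then found by symbol, as semaphorins of classes 3 to 7, plexins A to D and neuropilins. This gave 31 of the 45416 genes in the deposited table, namely 20 semaphorins, 9 plexins and 2 neuropilins. All 31 had reads in all 12 libraries and all 31 passed the filter on low reads.

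U251 is an established glioblastoma cell line, labelled wild type. Cells were transfected with an siRNA control (siNC) or with 1 of 2 siRNAs against *PD-L1* (siPDL1-1, siPDL1-2) for 48 h and were then left unstimulated or given IFNγ at 100 U/ml for 24 h. These 6 groups of 2 libraries each, from separate experiments according to the methods, are siNC, siPDL1-1 and siPDL1-2 without IFNγ, and the same siRNAs with it. The knockdown was transient, in a single cell line, and only RNA was measured, so the groups inform on transcript levels and not on the proteins at the cell surface or in the medium.

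Semaphorins are guidance ligands, first known from growing axons, that also act in vessels, immune cells and tumors. Class 3 semaphorins are secreted, whereas classes 4 to 6 span the membrane and SEMA7A is held there by a lipid anchor. Plexins are their receptors and switch small GTPases and the cytoskeleton, and neuropilins are coreceptors that most class 3 semaphorins need and that also bind vascular endothelial growth factors.

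Values are the authors' normalized CPM, in which the columns sum to 0.965 to 1.042 times plain CPM because each library has a further scaling factor, and levels are compared between genes only per kilobase of the canonical transcript. Averaged over the 12 libraries, *PLXNB2*, a receptor of class 4 semaphorins, had the highest level at 50.3 CPM per kb. The membrane ligand *SEMA4B* followed at 48.7 CPM per kb, and the coreceptor *NRP2* at 35.7 CPM per kb. *SEMA6B* (30.0), *SEMA3C* (26.6), *PLXND1* (25.4), *SEMA4C* (18.4), *NRP1* (18.2), *PLXNB3* (14.0) and *PLXNB1* (11.1 CPM per kb) came next. Ligands, receptors and coreceptors were thus all among the 10 most abundant members.

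Another 10 members, *SEMA3F*, *PLXNA1*, *SEMA3B*, *SEMA3A*, *PLXNA3*, *SEMA4F*, *SEMA7A*, *SEMA4D*, *SEMA6C* and *SEMA6A*, lay between 8.50 and 1.62 CPM per kb. The remaining 11, *PLXNA2*, *SEMA4G*, *SEMA6D*, *SEMA3E*, *SEMA3G*, *SEMA5B*, *SEMA4A*, *PLXNC1*, *PLXNA4*, *SEMA3D* and *SEMA5A*, lay between 0.911 and 0.0385 CPM per kb. The lowest of these had few reads: 1 read was worth 0.0187 to 0.0586 CPM, and *SEMA5A* was between 0.264 and 0.763 CPM. Reads were counted without regard to strand, and *SEMA4G* (2.57 CPM) overlaps *MRPL43* (79.9 CPM) on the other strand, as *PLXNC1* (1.47 CPM) does *CEP83* (11.9 CPM) and *PLXNA3* (75.4 CPM) does *LAGE3* (44.4 CPM), so these values are uncertain. *SEMA6B* overlaps no other gene of the table.

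**Figure D1:**
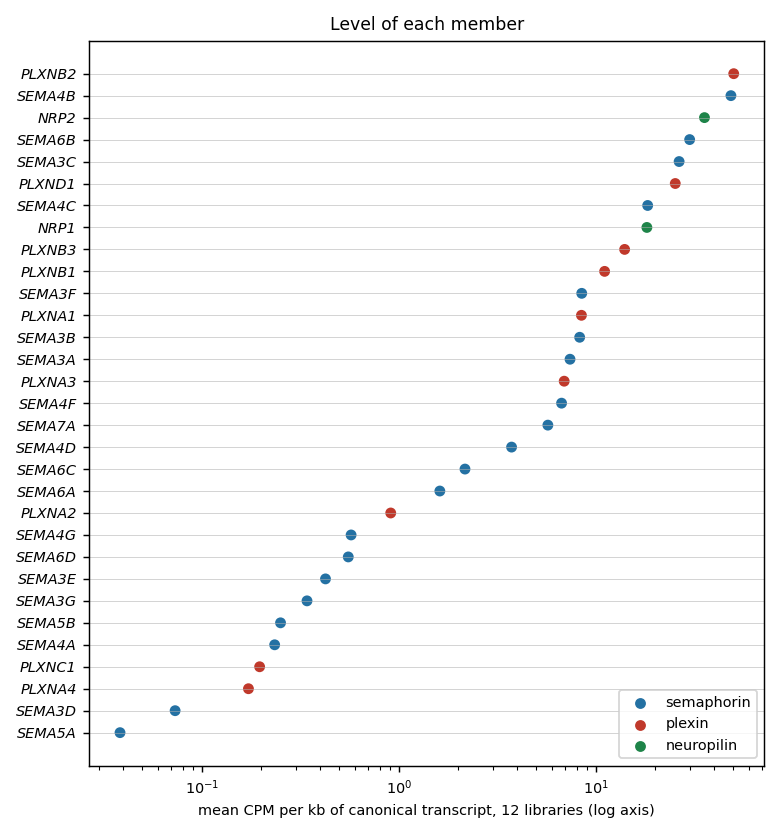
Mean level of each of the 31 members over 12 libraries, in CPM per kb of canonical transcript on a log axis, with 1 point per gene and colors for semaphorins, plexins and neuropilins. Levels run from 50.3 CPM per kb for *PLXNB2* to 0.0385 CPM per kb for *SEMA5A*.

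The siRNA target was checked first. *PD-L1*, listed as *CD274*, was 4.60 and 4.91 CPM with siNC, 2.67 and 2.73 CPM with siPDL1-1 and 3.57 and 3.45 CPM with siPDL1-2 in unstimulated cells. After IFNγ it was 71.2 and 76.0 CPM with siNC, 60.9 and 66.7 CPM with siPDL1-1 and 37.5 and 35.0 CPM with siPDL1-2. Both siRNAs lay below siNC in every library, but siPDL1-1 by little after IFNγ (log2 fold change -0.20, limma FDR = 0.0498), and siPDL1-2 by more (-1.0, limma FDR = 4.25e-07).

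The libraries had the markers of the labelled cell and few reads of others. The 8 glioblastoma or astrocytic markers summed to between 3998 and 4922 CPM, with *VIM* the most abundant and *GFAP* low, at 1.92 to 7.25 CPM. Of other cell types that use semaphorins, the 5 leukocyte markers summed to at most 0.812 CPM, with *PTPRC* at 0.176 CPM or less, and the 3 oligodendrocyte markers to at most 0.974 CPM. The 4 endothelial markers summed to 4.2 to 9.17 CPM, most of it *KDR*, with *PECAM1* at 0.297 CPM or less. Their sum moved with the siRNAs in unstimulated cells, at 5.68 and 6.07 CPM with siNC, 9.17 and 8.94 CPM with siPDL1-1 and 7.57 and 8.36 CPM with siPDL1-2. *CDH5* was 0.343 and 0.582 CPM with siNC, 1.62 and 1.46 CPM with siPDL1-1 and 0.815 and 1.34 CPM with siPDL1-2 in these cells. After IFNγ the sums were 4.31 and 4.36, 6.02 and 5.13, and 4.52 and 4.2 CPM in the same order, and the part of these markers in the members' values was not tested. The sum for the 4 neuronal markers was 74.9 to 107 CPM, nearly all of it *TUBB3*, while *RBFOX3* was at most 0.671 CPM.

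Interferon response differed between the siRNAs. The 6 IFNγ check genes summed to 130 to 139 CPM in unstimulated cells and to between 2877 and 3742 CPM after IFNγ. A list of 6 genes that respond to type I interferon summed to 1395 and 1411 CPM with siPDL1-1 after IFNγ, against 82.0 to 91.8 CPM in the other IFNγ libraries. In unstimulated cells it was already higher with siPDL1-1, at 29.6 and 30.1 CPM, than with siNC (15.8 and 14.0 CPM) or siPDL1-2 (12.8 and 11.8 CPM). *MX1*, 1 of the 6, was apart from this, at 4.14 and 4.19 CPM with siPDL1-1 after IFNγ and 4.21 and 4.61 CPM with siNC. The part of this response in the members' values with siPDL1-1 was not tested.

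Base composition also moved with the groups. The members had a median transcript GC content of 57.4%, against 48.7% over the genes tested, and *SEMA6B* had the highest at 67.9%. Over all genes with more than 60% GC, the median log2 fold change against siNC was 0.08 (siPDL1-1) and -0.11 (siPDL1-2) in unstimulated cells and 0.18 with each siRNA after IFNγ. For genes under 40% GC, the medians were -0.01, 0.29, -0.12 and -0.15. Values with the trends on GC content and transcript length removed are therefore given beside the members' medians and their called changes.

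The first question was which members differed between an siRNA and siNC, and whether *SEMA6B*, whose increase with both siRNAs was known when these genes were chosen, was alone in this. A gene was called at FDR < 0.01 and a fold change above 1.5 in limma's moderated test over 17982 genes. In unstimulated cells, siPDL1-1 raised 4 of 31 members, *SEMA6B*, *SEMA7A*, *SEMA3F* and *SEMA3B*, and lowered 0 (3 at an unadjusted p under 0.05), where 2.55% of all genes were called higher and 1.45% lower. After IFNγ, siPDL1-1 raised these 4 and *PLXND1*, and lowered 0 (2 at an unadjusted p under 0.05, background 3.73% higher and 1.75% lower). With siPDL1-2, limma, edgeR and DESeq2 each called 0 members in unstimulated cells (background 4.84% higher and 1.33% lower), where 11 were higher and 3 lower at an unadjusted p under 0.05 in limma. After IFNγ, limma called 2 members, *SEMA6B* and *SEMA3B*, higher with siPDL1-2 and 0 lower, with 3 lower at an unadjusted p under 0.05 (background 1.92% higher and 1.2% lower). Since *SEMA6B* was known beforehand, these counts say something only of the other 30 members, of which siPDL1-1 raised 3 in unstimulated cells and 4 after IFNγ, and siPDL1-2 raised 1 after IFNγ. After removal of the GC and length trends, siPDL1-1 raised 1 of these 30 (*SEMA7A*) in unstimulated cells and 2 (*SEMA7A* and *SEMA3F*) after IFNγ, against 3.6% and 4.44% of all genes called in either direction, and limma called 0 for siPDL1-2 in either state (15 and 17 at an unadjusted p under 0.05, with 4% and 2.13% of all genes called). The siPDL1-2 count after IFNγ, 2 with *SEMA6B*, became 4 without siNC replicate 1 and 1 without siNC replicate 2 or siPDL1-2 replicate 2.

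At an FDR under 0.01 with no limit on fold change, 9 of the 30 members other than *SEMA6B* were higher and 1 lower with siPDL1-1 in unstimulated cells, where 18.8% of all genes passed in either direction. With siPDL1-2, 5 were higher and 2 lower, against 28.4% of all genes, which is no more than the background. After IFNγ, 11 were higher and 2 lower with siPDL1-1 (background 23.8%), and 8 and 2 with siPDL1-2 (background 18.4%).

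The median log2 fold change over the 31 members was 0.22 with siPDL1-1 and 0.12 with siPDL1-2 in unstimulated cells, against 0.016 and 0.028 over all genes. After IFNγ it was 0.25 and 0.17, against -0.005 and -0.006. With the GC and length trends removed, the members' medians were 0.15, 0.16, 0.15 and 0.12 in the same order, against 0.021, 0.048, 0.001 and -0.001 over all genes. The siRNAs were each compared with the same siNC libraries, so their results are not independent of each other.

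**Figure D2:**
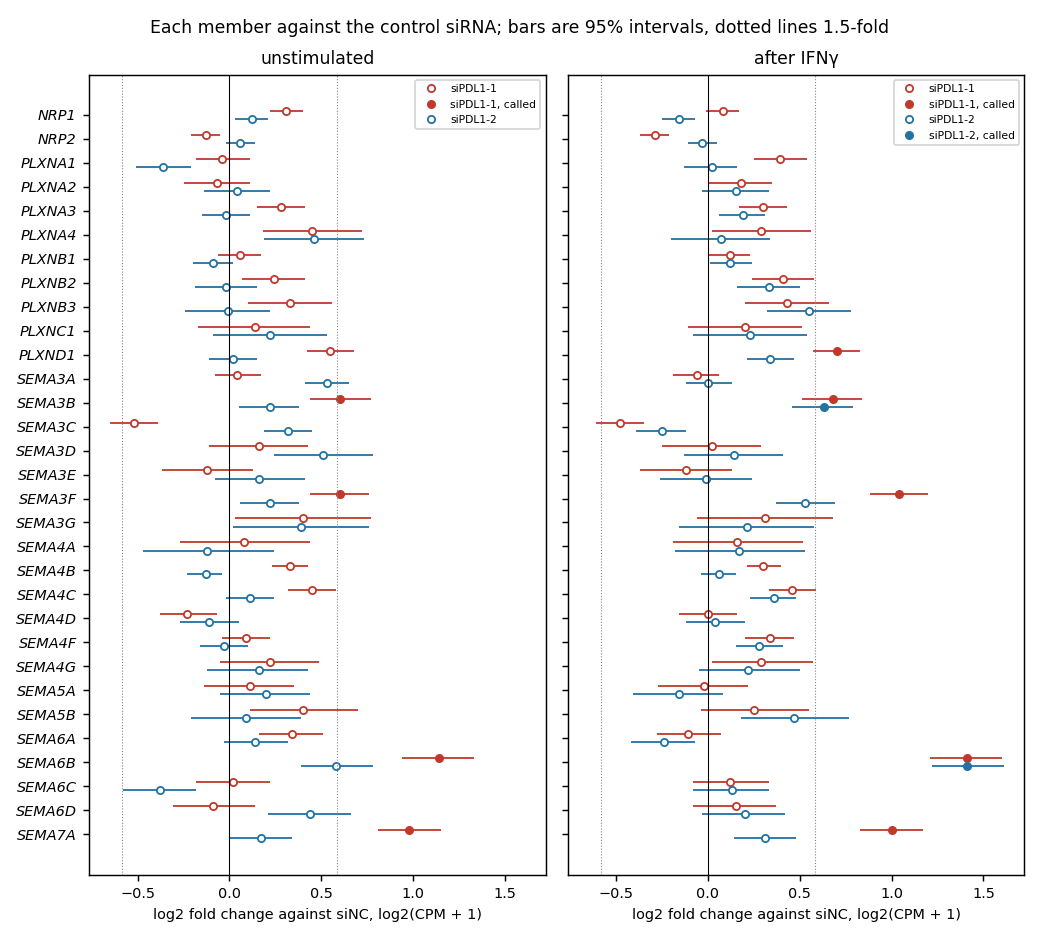
Log2 fold change of each member against siNC, on the log2(CPM + 1) scale, in unstimulated cells (left) and after IFNγ (right). Points are limma estimates from 2 libraries against 2, bars are 95% intervals, dotted lines mark 1.5-fold, and filled points were called. *SEMA6B* lies farthest to the right with both siRNAs in both panels, at 1.41 for each after IFNγ.

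*SEMA6B* (ENSG00000167680, chromosome 19, 4542593 to 4581776, minus strand of GRCh38) encodes a class 6 transmembrane semaphorin that binds class A plexins. In unstimulated cells it was 72.7 and 77.6 CPM with siNC, 171 and 163 CPM with siPDL1-1 and 111 and 115 CPM with siPDL1-2. With IFNγ it was 60.1 and 47.4 CPM with siNC, 149 and 138 CPM with siPDL1-1 and 139 and 149 CPM with siPDL1-2. Every library of either siRNA lay above every siNC library, and the siRNAs overlapped each other only after IFNγ.

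With siPDL1-1, the log2 fold change of *SEMA6B* was 1.14 ± 0.089 (standard error) in unstimulated cells and 1.41 ± 0.089 after IFNγ. With siPDL1-2 it was 1.41 ± 0.089 after IFNγ, but 0.58 ± 0.089 in unstimulated cells, just under the limit on fold change. These values are a description, with no test, because the rise of *SEMA6B* was the reason for the choice of genes. Removal of the GC and length trends left log2 fold changes of 0.97 and 0.80 for siPDL1-1 and siPDL1-2 in unstimulated cells and of 1.01 and 1.00 after IFNγ. The values with siNC after IFNγ lay apart from each other, and leaving out either library moved the log2 fold changes after IFNγ to between 1.24 and 1.58.

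The dependence of the siRNA effects on IFNγ was taken as the difference of the effects themselves. For *SEMA6B*, the effect of siPDL1-2 was larger after IFNγ by 0.83 ± 0.126 on the log2 scale, which is again a description with no test. Over all genes, the median of this difference was 0.30 above 60% GC and -0.45 below 40% GC, and with the trends removed it was 0.20 for *SEMA6B*. Of the other 30 members, limma called 0 for siPDL1-2 (12 higher and 6 lower at an unadjusted p under 0.05), where 7.62% of all genes were called, while edgeR called *SEMA6C* and DESeq2 called *PLXNB3*. For siPDL1-1, the difference was 0.27 for *SEMA6B*, and limma called 0 of the other 30, where 0.968% of all genes were called. DESeq2 and edgeR on the recovered reads also called 0, and at an unadjusted p under 0.05 in limma 4 of the 30 were higher and 3 lower.

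The other class 6 semaphorins, *SEMA6A*, *SEMA6C* and *SEMA6D*, share the transmembrane form and binding to class A plexins. *SEMA6A* was 8.57 and 9.62 CPM with siNC in unstimulated cells, 12.1 and 11.4 CPM with siPDL1-1 and 9.97 and 10.3 CPM with siPDL1-2. *SEMA6C* was 10.0 and 10.8 CPM, 10.6 and 10.5 CPM, and 7.76 and 7.78 CPM in the same order. *SEMA6D* was 3.48 and 3.77 CPM, 3.39 and 3.30 CPM, and 5.13 and 5.40 CPM. None of the 3 was called against siNC with either siRNA in either state.

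Their log2 fold changes did not share a direction, and their difference from that of *SEMA6B* was not tested. The 95% intervals of the log2 fold changes with siPDL1-1 in unstimulated cells were 0.16 to 0.51 for *SEMA6A*, -0.18 to 0.22 for *SEMA6C* and -0.31 to 0.14 for *SEMA6D*. With siPDL1-2 in unstimulated cells, they were -0.03 to 0.32, -0.58 to -0.18 and 0.21 to 0.66, and that of *SEMA6B* was 0.39 to 0.78. For *SEMA6B* with siPDL1-1 the interval in unstimulated cells was 0.94 to 1.33. After IFNγ, with siPDL1-1, the intervals for the other 3 were -0.28 to 0.07, -0.08 to 0.33 and -0.08 to 0.37. With siPDL1-2 after IFNγ, they were -0.42 to -0.07, -0.08 to 0.33 and -0.03 to 0.42. Once the trends were removed, the log2 fold changes of *SEMA6A*, *SEMA6C* and *SEMA6D* in unstimulated cells were 0.33, -0.11 and -0.06 with siPDL1-1 and 0.18, -0.21 and 0.34 with siPDL1-2. After IFNγ they were -0.14, -0.16 and 0.21 with siPDL1-1 and -0.24, -0.15 and 0.28 with siPDL1-2, none of them called, and *SEMA6C* turned from 0.12 and 0.13 to below 0.

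*SEMA7A* (ENSG00000138623, chromosome 15, 74409289 to 74433958, minus strand) encodes the lipid-anchored semaphorin, which binds plexin C1 and integrins that contain the beta 1 chain. In unstimulated cells it was 14.2 and 14.4 CPM with siNC, 29.3 and 28.9 CPM with siPDL1-1 and 15.4 and 17.1 CPM with siPDL1-2. After IFNγ it was 14.1 and 11.9 CPM with siNC, 27.0 and 27.0 CPM with siPDL1-1 and 16.1 and 16.6 CPM with siPDL1-2. The siPDL1-1 libraries stood apart from all others in both states.

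The log2 fold change of *SEMA7A* with siPDL1-1 was 0.98 ± 0.080 in unstimulated cells and 1.00 ± 0.080 after IFNγ (limma FDR = 4.31e-07 and 1.81e-07), and 0.89 and 0.83 with the trends removed. With siPDL1-2 it was 0.17 and 0.31, not called. *SEMA7A* was also called between the siRNAs, with siPDL1-1 above siPDL1-2 by 0.81 in unstimulated cells and 0.69 after IFNγ (limma FDR = 4.23e-06 and 2.09e-05), and by 0.59 and 0.67 with the trends removed. Of its receptor genes, *ITGB1*, which encodes the integrin beta 1 chain, was between 558 and 800 CPM over the 12 libraries. *PLXNC1* was low, at 1.03 and 1.09 CPM with siNC, 1.28 and 1.25 CPM with siPDL1-1 and 1.49 and 1.31 CPM with siPDL1-2 in unstimulated cells. After IFNγ, *PLXNC1* was 1.87 and 1.06, 1.96 and 1.65, and 1.76 and 1.95 CPM, with groups that overlapped, and it was called in no comparison.

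Direct comparison of the siRNAs called 2 members in unstimulated cells (background 4.35%) and 1 after IFNγ (background 2.23%). The other member called was *SEMA3C*, a secreted ligand that signals through neuropilins and plexins. It was 167 and 164 CPM with siNC, 115 and 116 CPM with siPDL1-1 and 204 and 210 CPM with siPDL1-2 in unstimulated cells, and the 3 groups did not overlap. The log2 difference of siPDL1-1 from siPDL1-2 was -0.83 (limma FDR = 3.57e-07). Against siNC the log2 fold changes were -0.52 with siPDL1-1 and 0.32 with siPDL1-2, not called. With the trends removed the difference between the siRNAs was -0.45 and no longer called, the value against siNC was -0.47 with siPDL1-1 and -0.03 with siPDL1-2, and the GC content of *SEMA3C*, 37.1%, is among the lowest of the members.

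*SEMA3F* and *SEMA3B* are neighbors on chromosome 3 (50155045 to 50189075 and 50267558 to 50277546, both on the plus strand) and encode secreted semaphorins that act through neuropilins. *SEMA3F* was 22 and 23.1 CPM with siNC, 35.7 and 33.9 CPM with siPDL1-1 and 25.6 and 27.1 CPM with siPDL1-2 in unstimulated cells. In stimulated cells it was 23.1 and 20.9 CPM with siNC, 49.7 and 42.8 CPM with siPDL1-1 and 31.6 and 32.6 CPM with siPDL1-2. The order siNC, siPDL1-2, siPDL1-1 held in both states with no overlap.

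*SEMA3F* had a log2 fold change with siPDL1-1 of 0.60 ± 0.075 in unstimulated cells and 1.04 ± 0.075 after IFNγ (limma FDR = 2.55e-05 and 6.83e-08). With the trends removed these were 0.50, no longer called, and 0.83, still called. In unstimulated cells the call was also lost with edgeR and with DESeq2's size factors (0.58 each), and without siNC replicate 1 or without siPDL1-1 replicate 1 (0.57 each). With siPDL1-2 the log2 fold changes of 0.22 and 0.53 (limma FDR = 0.0323 and 1.20e-04) were not called. With the trends removed they were 0.36 and 0.34 (limma FDR = 1.96e-05 and 5.53e-05), under the limit on fold change.

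*SEMA3B* was 26.1 and 25.8 CPM with siNC, 40.3 and 39.5 CPM with siPDL1-1 and 30.9 and 29.8 CPM with siPDL1-2 in unstimulated cells. The values after IFNγ were 16.3 and 13.3 CPM, 24.0 and 24.3 CPM, and 22.6 and 24.0 CPM. Both siRNAs were above siNC in both states, and both states of each siRNA were separate. The log2 fold change was 0.60 and 0.68 with siPDL1-1 (limma FDR = 3.41e-05 and 8.00e-06) and, after IFNγ, 0.63 with siPDL1-2 (limma FDR = 3.49e-05).

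None of the *SEMA3B* calls held with the trends removed, because all fell under the limit on fold change. These values were then 0.48, 0.42 and 0.37 (limma FDR = 1.76e-06, 1.12e-05 and 7.84e-05). The log2 fold change with siPDL1-2 in unstimulated cells went from 0.22 to 0.39 (limma FDR = 2.51e-05), also under that limit. *SEMA3B* thus stayed above siNC with both siRNAs in both states. The call for siPDL1-1 in unstimulated cells was also lost with edgeR and with DESeq2's size factors (0.58 each). Leaving out siNC replicate 2 after IFNγ gave 0.54 for siPDL1-1 and 0.49 for siPDL1-2, neither called, and leaving out siPDL1-2 replicate 2 after IFNγ gave 0.58 for siPDL1-2, not called.

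*PLXND1* (chromosome 3, 129555214 to 129606676, minus strand) encodes a plexin that binds SEMA3E without a neuropilin. It was 150 and 158 CPM with siNC, 228 and 224 CPM with siPDL1-1 and 153 and 159 CPM with siPDL1-2 in unstimulated cells. After IFNγ it was 142 and 123 CPM, 227 and 206 CPM, and 168 and 168 CPM. The siPDL1-1 libraries were the highest in each state. Only the log2 fold change of 0.70 ± 0.061 with siPDL1-1 after IFNγ was called (limma FDR = 5.92e-07), while the value of 0.55 in unstimulated cells was under the limit on fold change. With the trends removed the value after IFNγ was 0.45 and not called.

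**Figure D3:**
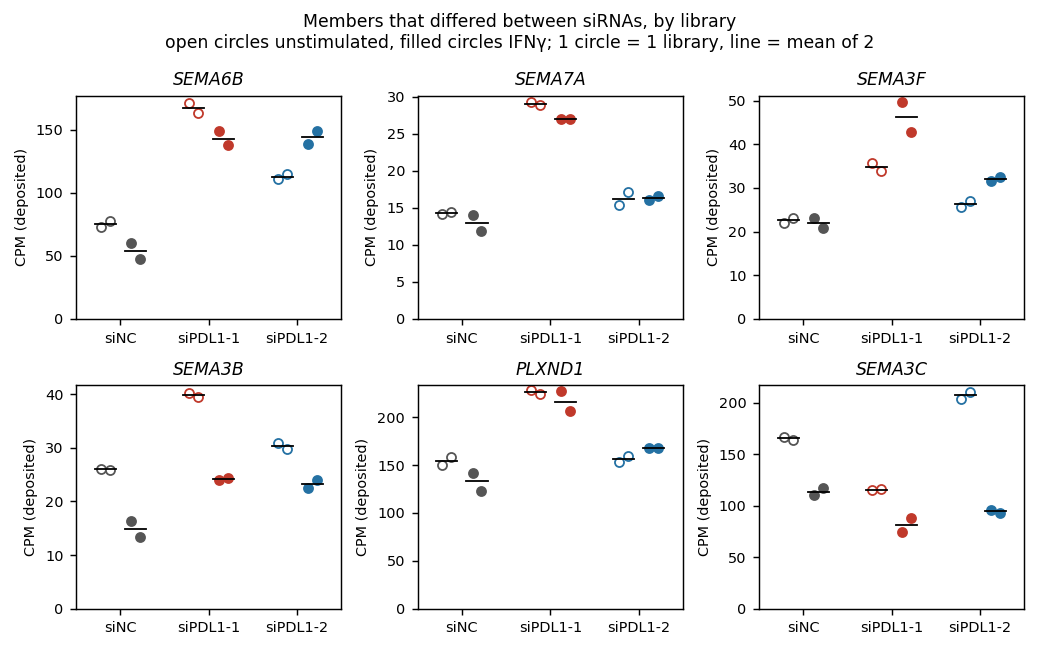
Deposited CPM of 6 members in each library, with a linear axis from 0, open circles for unstimulated and filled circles for IFNγ-stimulated cells, and a line at the mean of 2 libraries. *SEMA6B* was higher than siNC with both siRNAs, *SEMA7A* stood at 27.0 CPM or above only with siPDL1-1, and *SEMA3C* in deposited CPM was lowest with siPDL1-1 and highest with siPDL1-2 in unstimulated cells, where siPDL1-2 differed from siNC by a log2 fold change of 0.32 that became -0.03 with the GC and length trends removed.

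Of the most abundant members, *SEMA4B* was 166 and 168 CPM with siNC, 212 and 210 CPM with siPDL1-1 and 152 and 153 CPM with siPDL1-2 in unstimulated cells. Stimulated cells had 182 and 168 CPM, 222 and 210 CPM, and 180 and 184 CPM. siPDL1-1 was the highest in each state, with log2 fold changes of 0.33 and 0.30, both under the limit on fold change, and of 0.23 and 0.10 with the trends removed. *PLXNB2* was 302 and 328, 373 and 372, and 311 and 310 CPM in unstimulated cells. With IFNγ it was 285 and 238, 367 and 324, and 322 and 333 CPM. Its siNC libraries were the lowest after IFNγ, with log2 fold changes of 0.41 for siPDL1-1 and 0.33 for siPDL1-2, not called, and of 0.15 and 0.10 with the trends removed.

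*PLXNA1*, a receptor that pairs with neuropilins, was 82.9 and 92.2, 88.3 and 82.0, and 68.5 and 67.3 CPM with siNC, siPDL1-1 and siPDL1-2 in unstimulated cells. In stimulated cells it was 75.0 and 65.0, 95.1 and 89.1, and 71.4 and 69.8 CPM. siPDL1-2 was the lowest group without IFNγ and siPDL1-1 the highest with it, by log2 fold changes of -0.36 and 0.39 that were not called and became -0.23 and 0.16 with the trends removed. *NRP2*, a coreceptor for SEMA3F, was 247 and 253, 225 and 230, and 261 and 259 CPM in unstimulated cells. After IFNγ it was 245 and 246, 205 and 195, and 241 and 240 CPM. Its largest log2 fold change against siNC was -0.29, with siPDL1-1 after IFNγ, was not called and was -0.34 with the trends removed.

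**Figure D4:**
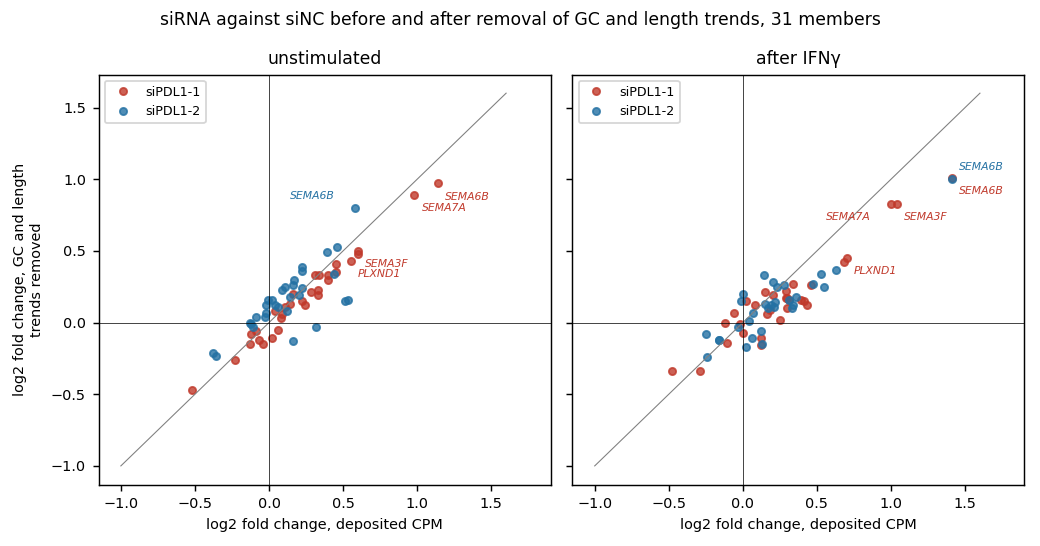
Log2 fold change of the 31 members against siNC from the deposited CPM (horizontal axis) and with the GC and length trends removed (vertical axis), in unstimulated cells (left) and after IFNγ (right), with 1 point per gene and siRNA and a line of equality. *SEMA6B* moved from 0.58 to 0.80 with siPDL1-2 in unstimulated cells and from 1.41 to 1.00 after IFNγ, and *SEMA7A* moved from 1.00 to 0.83 with siPDL1-1 after IFNγ.

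Promoters were examined for 27 of the 31 members, those in the RefSeq table (GRCh38.p14), with *SEMA6B*, *SEMA6A*, *SEMA3A* and *NRP1* among those not matched. The stretches before the annotated starts of *PLXND1*, *SEMA3F* and *SEMA7A*, which siPDL1-1 raised in at least 1 state, are shown as examples chosen after the sequences were seen, so their composition supports nothing. That of *SEMA3B* is not shown because its RefSeq start lies inside the gene as the deposited table bounds it. They are chr3:129606677-129606826 on the minus strand (89.3% GC), chr3:50154908-50155044 on the plus strand (81.8% GC) and chr15:74433959-74434108 on the minus strand (72.7% GC), each written 5′ to 3′ on the gene's strand and ending at the base before the gene. Capitals mark GGGCGG or its reverse complement CCGCCC, the GC box, a motif chosen after the sequences were seen.
PLXND1: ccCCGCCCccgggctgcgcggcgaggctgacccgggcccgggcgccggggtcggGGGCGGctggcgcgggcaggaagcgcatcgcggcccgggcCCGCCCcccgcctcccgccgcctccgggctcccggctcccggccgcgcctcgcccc
SEMA3F: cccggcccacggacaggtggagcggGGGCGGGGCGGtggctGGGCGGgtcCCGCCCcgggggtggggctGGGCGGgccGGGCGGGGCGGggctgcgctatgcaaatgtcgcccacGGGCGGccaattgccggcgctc
SEMA7A: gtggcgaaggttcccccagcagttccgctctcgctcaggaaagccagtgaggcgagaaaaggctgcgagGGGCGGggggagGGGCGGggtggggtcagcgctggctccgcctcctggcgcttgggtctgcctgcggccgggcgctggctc

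These stretches held 3, 8 and 2 GC boxes, neighbors that overlap by a base counted separately. Among all 35116 RefSeq promoter sequences, 36.8% had GGGCGG on either strand in the 150 bases before the start, and among the 48 sequences of members 30 did. Median GC content over all of these 150-base windows was 60%. A match is a description of these letters only.

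The second question was how IFNγ changed the members with each siRNA. In limma, 1 member rose and 3 fell with siNC (background 6.67% higher and 1.45% lower), 1 rose and 2 fell with siPDL1-1 (background 5.58% and 1.3%), and 1 rose and 3 fell with siPDL1-2 (background 3.62% and 1.65%). The member that rose was *NRP1* each time. Those that fell were *SEMA3B*, *PLXNA2* and *SEMA5B* with siNC, *SEMA3B* and *SEMA5B* with siPDL1-1, and *SEMA3C*, *PLXNA2* and *SEMA6D* with siPDL1-2. With siNC, edgeR and DESeq2's Wald test also called *SEMA6C* and *SEMA6D*. The log2 fold change of *SEMA6C* with siNC was -0.56 (limma FDR = 2.46e-04), under the limit on fold change, and -0.28 with the GC and length trends removed. The members' median log2 fold change was -0.22, -0.11 and -0.01 with siNC, siPDL1-1 and siPDL1-2, against 0.001, -0.016 and -0.015 over all genes. With the GC and length trends removed, the members' medians were -0.06, -0.08 and -0.03, against 0.025, 0.004 and -0.015 over all genes.

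*NRP1* (chromosome 10, 33177492 to 33336262, minus strand) encodes the coreceptor for SEMA3A and for vascular endothelial growth factor. Its value was 63.8 and 61.8 CPM with siNC, 78.9 and 77.7 CPM with siPDL1-1 and 68.9 and 68.1 CPM with siPDL1-2 in unstimulated cells. The values after IFNγ were 137 and 139 CPM, 149 and 143 CPM, and 122 and 123 CPM. All stimulated libraries were above all unstimulated ones.

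The log2 fold change of *NRP1* with IFNγ was 1.12 ± 0.042 with siNC, 0.89 ± 0.042 with siPDL1-1 and 0.83 ± 0.042 with siPDL1-2 (limma FDR = 1.32e-11, 1.92e-10 and 6.52e-10). With the GC and length trends removed these were 1.09, 0.88 and 0.90. The response was smaller than with siNC by 0.29 for siPDL1-2 (limma FDR = 0.00244) and by 0.23 for siPDL1-1 (limma FDR = 0.0503), neither called, and with the trends removed these differences were -0.20 (limma FDR = 0.013) and -0.21 (limma FDR = 0.012). The other neuropilin, *NRP2*, had log2 fold changes of -0.03, -0.18 and -0.11.

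*SEMA3C* fell after IFNγ with siPDL1-2, to 96.3 and 93.0 CPM, while it was 110 and 117 CPM with siNC and 74.6 and 87.9 CPM with siPDL1-1. The log2 fold change was -0.55 with siNC, -0.51 with siPDL1-1 and -1.12 with siPDL1-2 (limma FDR = 5.72e-06, 1.39e-05 and 2.09e-09), of which only the last passed the limit on fold change. The IFNγ libraries were below the unstimulated ones with each siRNA. With the GC and length trends removed, the 3 values were -0.90, -0.77 and -0.95, all called.

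*PLXNA2*, a class A plexin that binds class 6 semaphorins, was 13.7 and 12.7 CPM with siNC, 12.4 and 12.5 CPM with siPDL1-1 and 13.8 and 13.4 CPM with siPDL1-2 in unstimulated cells. With IFNγ it was 7.55 and 6.91, 8.68 and 7.90, and 7.92 and 8.33 CPM. IFNγ libraries were lower throughout, with log2 fold changes of -0.79 and -0.68 for siNC and siPDL1-2 (limma FDR = 3.06e-06 and 2.21e-05) and of -0.54 for siPDL1-1, which missed the limit on fold change. With the trends removed the called values were -0.64 and -0.63.

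*SEMA3B*, for which the values are given above, had log2 fold changes with IFNγ of -0.78 with siNC, -0.70 with siPDL1-1 and -0.37 with siPDL1-2. The first 2 were called (limma FDR = 1.47e-06 and 4.56e-06), and with the trends removed they were -0.51 and -0.58 and were not.

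*SEMA5B* and *SEMA6D* encode transmembrane semaphorins and were low. *SEMA5B* was 1.71 and 1.09 CPM with siNC, 2.23 and 2.07 CPM with siPDL1-1 and 1.32 and 1.77 CPM with siPDL1-2 in unstimulated cells. Stimulated cells had 0.524 and 0.394, 0.766 and 0.706, and 1.06 and 0.992 CPM. The siNC libraries after IFNγ rested on 28 and 19 reads, and the log2 fold changes of -0.71 with siNC and -0.86 with siPDL1-1 (limma FDR = 8.49e-04 and 1.93e-04) understate the change at this level because of the pseudocount. Without unstimulated siNC replicate 1 the value with siNC was -0.52, and without IFNγ siNC replicate 2 it was -0.64, neither called. With the trends removed it was -0.47 and not called with siNC, and -0.74 and still called with siPDL1-1.

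*SEMA6D* was 2.27 and 2.14 CPM with siNC, 2.70 and 2.40 CPM with siPDL1-1 and 2.64 and 2.71 CPM with siPDL1-2 after IFNγ, below every unstimulated library. With siPDL1-2 the log2 fold change was -0.77 (limma FDR = 6.21e-05) and was called, and with siNC (-0.53) and siPDL1-1 (-0.29) limma did not call it. The fall with siNC was called by edgeR, by DESeq2's Wald test, with a pseudocount of 0.1 and with plain CPM. With the trends removed the log2 fold change was -0.68 with siPDL1-2 and -0.63 with siNC, both called, and -0.35 with siPDL1-1. *SEMA6B* had log2 fold changes with IFNγ of -0.48 with siNC, -0.22 with siPDL1-1 and 0.34 with siPDL1-2, of which none was called, and of -0.12, -0.08 and 0.07 with the trends removed.

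**Figure D5:**
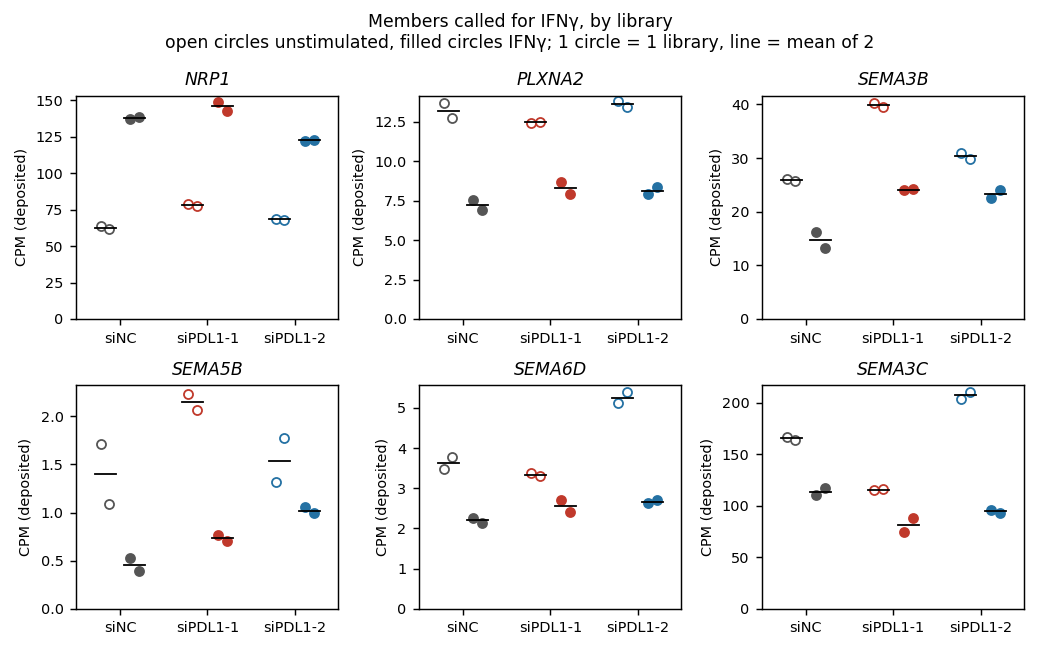
Deposited CPM of the 6 members that limma called for IFNγ with at least 1 siRNA, in each library, with a linear axis from 0, open circles for unstimulated and filled circles for IFNγ-stimulated cells, and a line at the mean of 2 libraries. *NRP1* was higher after IFNγ with every siRNA, from 61.8 to 78.9 CPM unstimulated to 122 to 149 CPM stimulated, and the other 5 members were lower.

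Motifs of interferon signaling were searched in the 300-base RefSeq promoters on both strands. TTCNNNGAA, the form bound by STAT dimers, was in 7.66% of all promoter sequences and in 1 of the 48 sequences of members, that of *SEMA3E* (chr7:83649151-83649173, minus strand). A pair of GAAA with a gap of 2 bases between them, a form of the interferon-stimulated response element, was in 3.57% of all promoter sequences and in 3 of the 48 sequences of members, those of *PLXNC1* (chr12:94148577-94148600, plus strand) and *SEMA3F*. The sites in *SEMA3E* and *PLXNC1* are printed with the motif in capitals as examples of each form.
SEMA3E: gaaatacTTCCTAGAAacagcaa
PLXNC1: acaatggGAAAGTGAAAcgcacaa

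Neither *SEMA3E* nor *PLXNC1* was called with IFNγ. *SEMA3F* was not called either, at log2 fold changes of -0.04 with siNC, 0.40 with siPDL1-1 (limma FDR = 7.82e-04) and 0.27 with siPDL1-2. With the GC and length trends removed these were 0.19, 0.52 and 0.17. *SEMA3E*, the ligand of PLXND1, was between 2.47 and 3.74 CPM over the 12 libraries.

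Genes that act with the members were counted from a list of 71 coreceptors, growth factors, small GTPases, kinases, cytoskeletal effectors and proteases, of which 66 were tested. All partner values are from the deposited CPM, and none is given with the GC and length trends removed. Genes under 40% GC had a median log2 fold change of 0.29 with siPDL1-2 in unstimulated cells. The part of these trends in the partners' calls and changes was not tested. Against siNC, 5 were higher and 1 lower with siPDL1-1 in unstimulated cells (2.55% and 1.45% of all genes), and 6 were higher with siPDL1-2 (4.84% of all genes). After IFNγ, 4 were higher and 2 lower with siPDL1-1 (3.73% and 1.75% of all genes), and 1 and 2 with siPDL1-2 (1.92% and 1.2% of all genes). *RAP1B*, a small GTPase that plexins inactivate, was the only one called with both siRNAs in both states, with log2 fold changes of 0.90 and 0.81 for siPDL1-1 and 1.31 and 0.68 for siPDL1-2. *L1CAM*, an adhesion molecule that associates with NRP1, and *CRMP1*, a mediator of SEMA3A signaling, were called with siPDL1-1 in both states, at 0.97 and 0.99 and at 0.63 and 0.64.

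Other partners with the largest changes in unstimulated cells were *HGF*, a growth factor that binds neuropilins, at 0.77 with siPDL1-1 and 0.98 with siPDL1-2, and *PTPRZ1*, a receptor phosphatase, at 1.00 with siPDL1-2. After IFNγ they were *MST1R*, a receptor kinase that associates with class B plexins, at 0.68 with siPDL1-1, and the small GTPases *RRAS2* and *RAP2A*, at -0.68 and -0.65 with siPDL1-2.

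With IFNγ itself, 4 partners rose and 1 fell with siNC (6.67% and 1.45% of all genes), 4 rose and 3 fell with siPDL1-1 (5.58% and 1.3%), and 1 rose and 3 fell with siPDL1-2 (3.62% and 1.65%). *MRAS*, a small GTPase related to R-Ras, rose with all 3 siRNAs, by 1.39, 1.03 and 1.19, and *MICAL2*, of a family of actin-oxidizing enzymes downstream of plexins, fell with all 3 (-0.81, -0.63 and -0.62). *RAP1B* rose by 0.82 with siNC. *RND3* and *PGF* were at 0.87 and -0.86 with siPDL1-1, and *PTPRZ1* and *KDR* at -0.86 and -0.76 with siPDL1-2. In the test of dependence on IFNγ, 1 partner was higher and 5 lower for siPDL1-2, a share near the 7.62% of all genes called in it and in the comparison with the median of -0.45 over genes below 40% GC. They were led by *RAP2A* at -1.03, *RAP1A* at -0.80 and *SH3BP1* at 0.75.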

How the data were processed

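The data were deposited RNA-seq values of 12 libraries, grouped by their sample titles. Per the methods, the authors trimmed poly(A)-selected reads and used CLC Genomics Workbench to map them to GRCh38, count them without regard to strand and normalize them. The signal values are this normalized CPM as deposited by the authors. All values (100%) were whole multiples of 1 read, within 0.01, so that reads per gene were recovered, from 17101069 to 55657393 per library, which limits the precision of low genes. The extraction and instrument named in the methods differ from those in the sample labels.

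The members and gene lists were chosen with earlier results of these data known. All 12 libraries were fitted as 6 groups with limma (trend, robust) on log2(CPM + 1), with a pseudocount of 1, after filterByExpr (minimum count 10, minimum total 15). Fold changes of low genes are therefore understated. FDR values are Benjamini-Hochberg over the 17982 genes tested, and a gene was called at FDR < 0.01 and fold change > 1.5. Libraries were given for *SEMA6B*, for members called for an siRNA or IFNγ and for the most abundant member of each class. Partners were named where called in both states or among the 3 largest changes of a comparison. A member singled out beyond this, such as *SEMA6A*, *SEMA6C* and *SEMA3E*, was chosen after its values were seen.

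Alternatives were a pseudocount of 0.1, no filter, edgeR's quasi-likelihood test and DESeq2 on the recovered reads, plain CPM, DESeq2's size factors, a replicate block, only the libraries of the same stimulation, no limit on fold change, and leaving out each library. Subtracting each library's trend with GC content and length (canonical transcripts of GENCODE) was added after seeing the data. Each tool was tested on simulated data. Tests used limma 3.58.1, DESeq2 1.42.0 and edgeR 4.0.16 under R 4.3.3, and tables and plots used pandas 2.3.3, numpy 2.4.6 and matplotlib 3.10.9 under Python 3.11.15.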

Additional observations from a re-analysis of the deposited data

Results flagged for a closer look

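*SEMA6B* differed in its response to siPDL1-2 between stimulated and unstimulated cells: the effect against siNC was larger after IFNγ by 0.83 on the log2 scale, and by 0.20 with the GC and length trends removed. The gene was chosen for its rise in these same comparisons, so this is a description with no test. The siRNA target *CD274* differed in limma's test of the difference itself, in which 7.62% of all genes were called, with an effect of siPDL1-2 that was lower after IFNγ by a log2 difference of -0.65 (limma FDR = 5.37e-04).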

How the results depend on the processing

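Results are given for *SEMA6B*, for *CD274* and for the number of members called. For 22 pairs of a comparison and a called member other than *SEMA6B*, removing the GC and length trends left 13 called and ended 9 calls, leaving out each of the 12 libraries, most of them outside the comparison, ended 7 of 264 and the other alternatives ended 4 of 165, with 0 reversed. With the GC and length trends removed, 2 members were called for siPDL1-1 and 1 for siPDL1-2 in unstimulated cells, 3 and 1 after IFNγ, 1 between the siRNAs in unstimulated cells and 0 for the dependence of siPDL1-2 on IFNγ, where 3.6%, 4%, 4.44%, 2.13%, 1.61% and 1.52% of all genes were called. The siPDL1-2 counts of 1 were *SEMA6B* alone, and the siPDL1-1 counts of 2 and 3 include it. The log2 fold change of *SEMA6B* with siPDL1-2 in unstimulated cells, a description with no test, was 0.80 in this setting, 0.59 with a pseudocount of 0.1 and 0.60 with plain CPM, all above the limit on fold change. The last 2 settings called 2 and 1 members for siPDL1-2 in unstimulated cells, of which 1 (*SEMA3D*) and 0 were not *SEMA6B*, and plain CPM called 7 for IFNγ with siNC. For siPDL1-1 in unstimulated cells, 2 members were called by edgeR and 2 with the size factors of DESeq2, each time 1 that was not *SEMA6B*. For dependence of siPDL1-2 on IFNγ, edgeR, DESeq2's Wald test and its size factors each called 2, of which 1 was not *SEMA6B*. The cause of these differences was not tested.

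Without a limit on fold change, 11 and 8 members were called for siPDL1-1 and siPDL1-2 in unstimulated cells (18.8% and 28.4% of all genes). After IFNγ, 14 and 11 were called (23.8% and 18.4%). All of these counts against siNC include *SEMA6B*, which was known beforehand. Without it, 9 were higher and 1 lower with siPDL1-1 in unstimulated cells, and 5 and 2 with siPDL1-2. After IFNγ these were 11 and 2, and 8 and 2. Between the siRNAs, 15 and 7 were called without and with IFNγ (24.1% and 10.5%). For IFNγ with siNC, siPDL1-1 and siPDL1-2, 13, 9 and 9 were called (27.3%, 22.9% and 17.1%). For the dependence of siPDL1-2 on IFNγ, 5 were called (17.1%). *SEMA6B* is in the counts of 15, 13 and 5.

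Leaving out each library gave 3 to 5 and 0 to 2 members for siPDL1-1 and siPDL1-2 in unstimulated cells, and 4 to 6 and 1 to 4 after IFNγ. The lone library left in a group was assumed to vary like the others. All counts of members in this paragraph include *SEMA6B* where it was called, so they are not counts of the other members alone. For siPDL1-2 in unstimulated cells, 2 members were called without siNC replicate 2 or siPDL1-2 replicate 1, where *SEMA6B* was 0.63 and 0.60. For siPDL1-2 after IFNγ, 4 were called without siNC replicate 1, and 1 without siNC replicate 2 or siPDL1-2 replicate 2. Between the siRNAs, 2 to 3 were called without IFNγ and 1 to 2 with it (2 without siPDL1-1 replicate 2). For IFNγ, 4 to 6, 3 to 5 and 4 to 4 were called with siNC, siPDL1-1 (5 without its IFNγ replicate 1) and siPDL1-2. For dependence on IFNγ, 0 to 0 were called for siPDL1-1 and 1 to 3 for siPDL1-2 (3 without siNC replicate 1 after IFNγ or unstimulated siPDL1-2 replicate 1, and 2 without unstimulated siNC replicate 1 or siPDL1-2 replicate 1 after IFNγ). *SEMA6B* ranged from 1.09 to 1.19 and from 0.54 to 0.63 in unstimulated cells and from 1.24 to 1.57 and from 1.24 to 1.58 after IFNγ for siPDL1-1 and siPDL1-2. *CD274* ranged from -0.68 to -0.60, from -0.39 to -0.31, from -0.27 to -0.14 and from -1.05 to -0.95 in the same order.

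Replicate numbers did not pair the samples: over 15 pairs of groups the correlation of same-numbered deviations ranged from -0.13 to 0.19, with 2 over 0.1. Each group holds both replicate numbers, so a replicate block cannot move a log2 fold change and bears only on the spread. With the replicate block, the number of members called for siPDL1-1, *SEMA6B* included, was 4 in unstimulated cells and 5 after IFNγ, as without it. The p-values rest on the spread between the 2 libraries of a group, pooled for each gene over all 6 groups and moderated over genes. That these libraries came from separate experiments rests on the methods. Members under about 1 CPM rest on few reads, *SEMA3D* for example on 3 and 16 in the unstimulated siNC libraries, and are less precise.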
